A study of Mus musculus with 4 samples.

Results

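The lower part of glycolysis and the enzymes at its exit were followed in WT_CTCF and MUT_CTCF mouse embryonic stem cells (mESCs) by RNA-seq. The genes were Gapdh, Pgk1, Pgam1, the enolase genes Eno1, Eno2 and Eno3, Pkm2 (now Pkm, the name used from here), the lactate dehydrogenase genes Ldha and Ldhb, and Pdk1. They were picked by symbol, with earlier results of these data known, and they are 10 of the 37620 genes in the count table. All 10 passed the filter on low counts. Both lines came from CTCF-mAID mESCs, in which the endogenous CTCF carries EGFP and an auxin-inducible degron, and both were grown on gelatin in medium with serum and LIF. Each line carried a vector that encodes CTCF, either the wild-type protein (WT_CTCF) or the protein mutated at T668 so that it cannot carry O-GlcNAc there (MUT_CTCF), and endogenous CTCF was degraded with auxin at 0.5 mM. The methods give 2 days of auxin for these cells without naming the time for the RNA-seq itself. Each line was 1 picked clone, so the mutation cannot be told apart from the clone, and there were 2 libraries per line, which the methods call biological replicates. The question was which of these genes differed in RNA level between the lines.

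In glycolysis, GAPDH and PGK1 turn triose phosphate into 3-phosphoglycerate with the first gain of ATP, PGAM1 and the enolases carry it on to phosphoenolpyruvate, and pyruvate kinase makes pyruvate. Lactate dehydrogenase reduces pyruvate to lactate and so returns NAD+ to GAPDH, and PDK1 phosphorylates and inactivates pyruvate dehydrogenase, which keeps pyruvate from becoming acetyl-CoA for the TCA cycle. Several of these genes are known targets of the hypoxia-inducible factors, whose response elements hold the core ACGTG or GCGTG, and pluripotent stem cells are known for active glycolysis.

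The promoter windows of Ldha, Pgk1 and Pdk1, 3 genes that rose in MUT_CTCF mESCs, and of Gapdh, which did not pass the test, show how this core is placed in them. For Ldha and Pdk1, which have 2 RefSeq windows each, the first is printed. They are RefSeq sequences of build GRCm38.p6, from 250 bases before to 50 bases after the transcript start, read 5′ to 3′ on the strand of the gene. Ldha lies at chr7:46845554-46845853 (plus strand), Pgk1 at chrX:106186850-106187149 (plus strand), Pdk1 at chr2:71872974-71873273 (plus strand) and Gapdh at chr6:125165724-125166023 (minus strand). Capitals mark ACGTG and GCGTG on either strand, which read as CACGT and CACGC on the strand opposite.
Ldha: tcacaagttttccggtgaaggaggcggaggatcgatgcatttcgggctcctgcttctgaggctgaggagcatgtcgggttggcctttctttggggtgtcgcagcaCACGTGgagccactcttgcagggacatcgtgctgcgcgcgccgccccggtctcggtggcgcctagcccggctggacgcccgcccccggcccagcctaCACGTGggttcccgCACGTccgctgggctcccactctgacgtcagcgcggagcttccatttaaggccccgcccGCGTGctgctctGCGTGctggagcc
Pgk1: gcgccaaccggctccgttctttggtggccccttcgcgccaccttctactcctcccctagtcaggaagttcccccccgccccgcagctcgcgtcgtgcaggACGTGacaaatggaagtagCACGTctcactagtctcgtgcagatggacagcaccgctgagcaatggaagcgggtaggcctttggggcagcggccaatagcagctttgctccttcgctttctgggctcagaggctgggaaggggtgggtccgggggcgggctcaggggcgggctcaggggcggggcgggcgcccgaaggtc
Pdk1: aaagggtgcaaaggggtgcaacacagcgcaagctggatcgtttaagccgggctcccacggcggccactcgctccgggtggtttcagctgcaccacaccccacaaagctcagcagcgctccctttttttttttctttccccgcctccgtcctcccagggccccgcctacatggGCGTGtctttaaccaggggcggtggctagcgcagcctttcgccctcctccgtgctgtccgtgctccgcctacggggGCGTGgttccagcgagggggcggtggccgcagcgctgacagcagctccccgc
Gapdh: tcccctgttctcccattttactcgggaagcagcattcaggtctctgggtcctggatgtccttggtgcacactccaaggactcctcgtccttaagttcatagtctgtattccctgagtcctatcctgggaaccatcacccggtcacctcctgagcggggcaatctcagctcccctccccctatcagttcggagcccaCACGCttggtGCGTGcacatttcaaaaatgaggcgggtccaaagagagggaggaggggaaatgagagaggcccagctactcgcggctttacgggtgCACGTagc
Ldha had marked letters at 5 places. Those 145 and 48 bases before the start are the palindrome CACGTG, in which ACGTG and its reverse complement overlap. Pgk1 had ACGTG 150 bases and its reverse complement CACGT 131 bases before the start. Pdk1 held GCGTG 78 bases and 2 bases before the start of the printed window, and its other window held neither core. The other window of Ldha held GCGTG or its reverse complement at 2 places and no CACGTG. Gapdh had marked letters at 3 places, 54 and 44 bases before and 42 bases after the start. Of the 15 RefSeq windows of the 10 genes, 12 windows, in 9 genes, held ACGTG or GCGTG, and the 1 gene with neither was Eno2. The same letters stood in 43.8% of all 32851 windows, with ACGTG in 19.6%, GCGTG in 32.4% and CACGTG in 7.15% of them. This share is per window, and a share per gene was not counted. Windows 2 and 3 of Eno1 overlap and hold the same 2 places, so these count in both. The windows of the 10 genes ranged from 40.3 to 69% GC against a median of 52.7% over all windows, and the part of base composition in the matches was not tested. The core stood in at least 1 window of Pgk1, Eno1, Eno3, Pkm, Ldha and Pdk1, which rose. For Pkm, as for Pdk1, only 1 of 2 windows held it. The core also stood in Gapdh, Pgam1 and Ldhb, which did not pass the test. A part of the core in the changes was not tested, and a match is a description of the letters and not a binding site.

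The 4 libraries held 40524694 to 40977464 counted reads, and 16264 genes were tested. The embryonic stem cell markers Pou5f1, Sox2, Nanog and 5 others were all expressed, with summed levels of 6035 and 5966 CPM (counts scaled to a common library size) in WT_CTCF and 5926 and 5913 CPM in MUT_CTCF. With edgeR 1 of these 8 markers was higher, Sox2 (log2 fold change 0.095, adjusted p = 0.0358), and 2 were lower, Utf1 (-0.21, 0.00499) and Dppa5a (-0.099, 0.0157). For these markers the exact test called 0 higher and 1 lower, and DESeq2 called 1 higher and 2 lower. At an unadjusted p under 0.05 from edgeR, 1 was higher and 4 were lower. The markers of fibroblasts and endoderm were low, with 21.7 to 25.1 CPM summed over 7 fibroblast markers (Lum had 0 counts in every library) and 7.44 and 8.26 CPM in WT_CTCF against 9.55 and 12.2 CPM in MUT_CTCF over 6 endoderm markers. With edgeR, 0 of 4 tested fibroblast and 0 of 4 tested endoderm markers had an adjusted p under 0.05. The exact test called 0 as well, DESeq2 gave none of them an adjusted p, and 1 fibroblast marker (lower) and 2 endoderm markers (higher) had an unadjusted p under 0.05. The part of these cells in the results was not tested. In bulk RNA, fewer cells of a type and less RNA per cell cannot be told apart.

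Of the 10 genes, 6 were higher in MUT_CTCF than in WT_CTCF mESCs and 0 were lower. A gene was called when its adjusted p was under 0.05 in the quasi-likelihood test of edgeR, with Benjamini-Hochberg adjustment over all tested genes, and SE marks the standard error on the log2 scale. The 6 were Pgk1, Eno1, Eno3, Pkm, Ldha and Pdk1. Over all tested genes 1.56% were called higher and 1.61% lower, or 253 and 262 genes, which became 260 and 152 when libraries were scaled by size alone. DESeq2 called 117 and 184, but it gave an adjusted p to 5896 genes, against 16264 in the main fit. At an unadjusted p under 0.05, 7 of the 10 were higher, with Ldhb in addition, and 0 were lower. The MUT_CTCF libraries were both above the WT_CTCF libraries in 8 of the 10 genes, where 22.3% of all tested genes did so, and the groups overlapped in Gapdh and Pgam1. The median log2 fold change was 0.20 over the 10 genes and 0.0034 over all tested genes. Highly expressed genes are measured more precisely, and among genes with a mean of at least 5000 normalized counts (counts scaled by TMM to the mean library) 4 of 7 of these genes were called higher against 3.04% of all 1873 such genes. The changes were small, at most 30.3% (Eno3), so none reached the limit of 2 in the study's criterion. Together the 10 genes took 1.253 and 1.242% of the reads in WT_CTCF and 1.302 and 1.326% of the reads in MUT_CTCF.

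The count of 6 rested on both MUT_CTCF libraries and on the filter. Without MUT_CTCF replicate 1 or without MUT_CTCF replicate 2, which leaves 1 library whose spread is assumed to be that of the other group, 1 of the 10 was called, Ldha, and 6 of all tested genes. Without WT_CTCF replicate 1 there were 3 calls and without WT_CTCF replicate 2 there were 4. With no filter on low counts 2 were called, Pgk1 and Ldha. With 2 libraries a line, the smallest two-sided p of an exact permutation test is 0.333, and these calls rest on a spread shared across genes by edgeR.

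**Figure D1:**
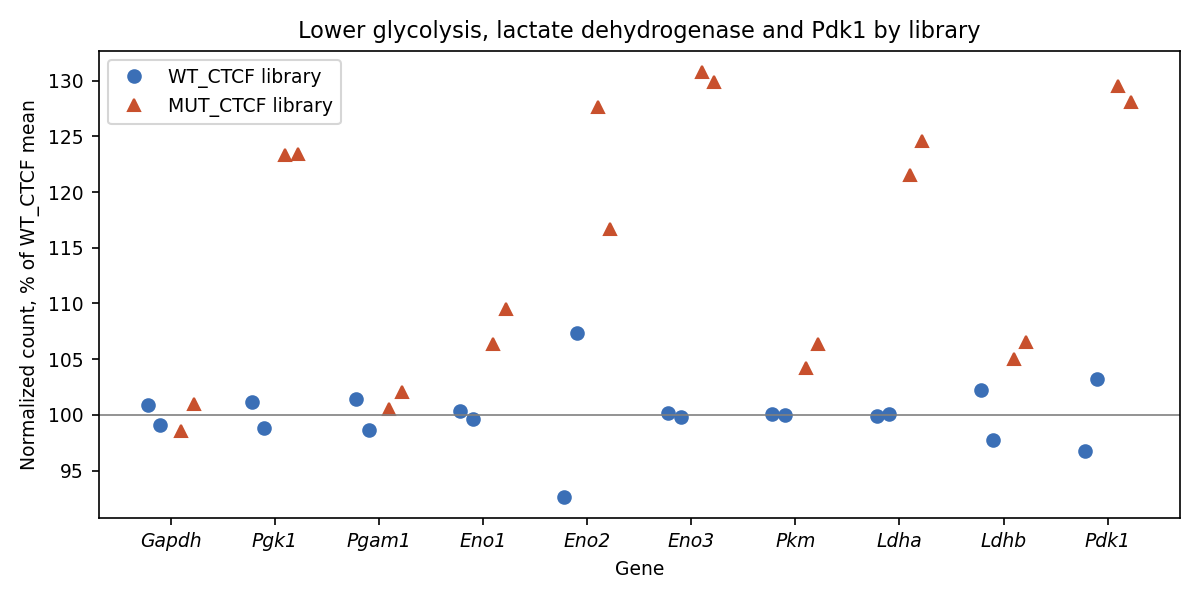
Normalized counts of each gene as a percentage of its WT_CTCF mean (vertical axis) for the 10 genes (horizontal axis), with 1 point per library, circles for WT_CTCF and triangles for MUT_CTCF. The triangles lie above both circles in 8 genes and overlap with them in Gapdh and Pgam1.

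Gapdh (chromosome 6 of mm9, 125111871 to 125116485, minus strand), the enzyme that oxidizes glyceraldehyde 3-phosphate, had 236923 and 232594 normalized counts in WT_CTCF and 231247 and 237033 in MUT_CTCF mESCs. The groups overlapped, with means of 234758 ± 3061 and 234140 ± 4091 (SD, n = 2). The log2 fold change was -0.0038 (adjusted p = 0.951 by edgeR, SE 0.016, 95% interval -0.037 to 0.029), and its sign turned with library size alone, where it was 0.0085. The next enzyme differed. Pgk1 (chromosome X, 103382439 to 103399038, plus strand), which makes the first ATP of the pathway, had 11970 and 11689 normalized counts in WT_CTCF and 14588 and 14604 in MUT_CTCF. Both MUT_CTCF libraries were higher, with means of 11830 ± 198 and 14596 ± 11.03 (SD, n = 2). This was a log2 fold change of 0.30 (adjusted p = 1.29e-10 by edgeR, SE 0.031), the 13th smallest p of all tested genes. The call of Pgk1 was lost without MUT_CTCF replicate 1 (adjusted p = 0.0539) and without MUT_CTCF replicate 2 (0.0594).

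Pgam1 (chromosome 19, 41986361 to 41993154, plus strand), the mutase that moves the phosphate of 3-phosphoglycerate, had 19648 and 19106 normalized counts in WT_CTCF and 19484 and 19772 in MUT_CTCF. One WT_CTCF library lay between the MUT_CTCF libraries. The log2 fold change was 0.019 (adjusted p = 0.835 by edgeR, SE 0.028, 95% interval -0.038 to 0.075), and -0.0015 without WT_CTCF replicate 2. The intervals of Gapdh and Pgam1 stay below the fold changes of Pgk1 and Ldha, but the differences between genes were not tested.

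Of the enolases, which form phosphoenolpyruvate, Eno1 and Eno3 rose and Eno2 did not pass the test. Eno1 (chromosome 4, 149610830 to 149622988, plus strand), the form that most cells use, had 54730 and 54339 normalized counts in WT_CTCF and 58020 and 59717 in MUT_CTCF. Both MUT_CTCF libraries were above both WT_CTCF libraries, and the log2 fold change was 0.11 (adjusted p = 9.66e-04 by edgeR, SE 0.022). It was no longer called without MUT_CTCF replicate 1 (adjusted p = 0.167), without MUT_CTCF replicate 2 (0.28) or without a filter (0.167).

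Eno3 (chromosome 11, 70470704 to 70476015, plus strand), the form known from skeletal muscle, had 492.8 and 491.2 normalized counts in WT_CTCF and 643.4 and 639.0 in MUT_CTCF. The libraries of a line lay close together and the groups were apart, with a log2 fold change of 0.38 (adjusted p = 0.0363 by edgeR, SE 0.110), the highest of the 10. The call ended with any library left out, whether WT_CTCF replicate 1 (adjusted p = 0.168), WT_CTCF replicate 2 (0.153), MUT_CTCF replicate 1 (0.406) or MUT_CTCF replicate 2 (0.387), and with no filter (0.248). The 6 skeletal muscle markers summed to 16.6 and 17.3 CPM in WT_CTCF and 20.0 and 19.0 CPM in MUT_CTCF. With edgeR 0 of 5 tested had an adjusted p under 0.05 and 0 an unadjusted p under 0.05, the exact test called 0, DESeq2 gave none of them an adjusted p, and Tnnt3 had at most 1 count in a library. Their part in the change of Eno3 was not tested.

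Eno2 (chromosome 6, 124710071 to 124719691, minus strand), the neuronal form, had 184.3 and 213.5 normalized counts in WT_CTCF and 253.8 and 232.1 in MUT_CTCF. The MUT_CTCF libraries were higher without overlap, but the log2 fold change of 0.29 did not pass the test (adjusted p = 0.45 by edgeR, SE 0.172), and its 95% interval of -0.055 to 0.63 takes in the size seen in Eno3. Summed over 6 neuron markers, levels were 572 and 566 CPM in WT_CTCF and 524 and 519 CPM in MUT_CTCF. Most of this sum came from Tubb3 and Stmn2, with 12061 to 13741 and 8844 to 9421 counts in a library. Map2, Snap25, Syp and Rbfox3 had at most 179. With edgeR 1 of 6 was called, Tubb3, which was lower. The log2 fold change was above 0 in 3 of the 6, with a median of 0.12. That median takes in genes with few and uneven reads. Snap25 had 71 and 75 counts in WT_CTCF and 179 and 0 in MUT_CTCF, and Syp had 31 and 43 against 43 and 2. The part of these markers in the values of Eno2 was not tested.

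Enolase reads were shared out within each library per kilobase of annotated exon. Eno1 made up 96.85 and 96.78% in WT_CTCF and 96.12 and 96.29% in MUT_CTCF, while Eno3 made up 2.78 and 2.79% against 3.39 and 3.28%. The Eno3 share was 0.557 percentage points higher in MUT_CTCF (exact permutation test, two-sided p = 0.333, the smallest that 2 against 2 allows), and 0.236 points higher when the longest transcript was taken as the length. Eno2 stayed between 0.373 and 0.481% in all 4 libraries, and its groups overlapped.

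Pkm (chromosome 9, 59504383 to 59527182, plus strand) encodes pyruvate kinase M, whose M1 and M2 forms come from alternative exons that a count per gene does not tell apart. It had 148931 and 148753 normalized counts in WT_CTCF and 155052 and 158352 in MUT_CTCF. Both MUT_CTCF libraries were higher, by a log2 fold change of 0.074 (adjusted p = 0.00766 by edgeR, SE 0.018), the lowest of the 6 that rose. The call was lost with edgeR's exact test (adjusted p = 0.182), without a filter (0.219) and with each library left out, whether WT_CTCF replicate 1 (0.12), WT_CTCF replicate 2 (0.117), MUT_CTCF replicate 1 (0.193) or MUT_CTCF replicate 2 (0.356). Of 4 splicing factors known to act on these exons, 1 fell and 0 rose with edgeR (4 lower and 0 higher at an unadjusted p under 0.05, and 0 higher with DESeq2 or the exact test). Ptbp1, which represses the M1 exon, fell by 0.091 in log2 terms (adjusted p = 0.0149 by edgeR, SE 0.023), and that call was lost with the exact test. Srsf3 and Hnrnpa1 had log2 fold changes of -0.086 and -0.075 (adjusted p = 0.105 and 0.13 from edgeR).

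Of the lactate dehydrogenase genes, Ldha rose and Ldhb did not pass the test. Ldha (chromosome 7, 54096845 to 54110997, plus strand), the form known for making lactate, had 31156 and 31210 normalized counts in WT_CTCF and 37887 and 38847 in MUT_CTCF. The groups did not overlap, with means of 31183 ± 38.0 and 38367 ± 679 (SD, n = 2), though 2 libraries measure spread poorly. The log2 fold change was 0.30 (adjusted p = 5.22e-14 by edgeR, SE 0.024), the 6th smallest p of all tested genes. Ldha was called in every setting that gave a test, with an adjusted p of 0.0234 at most, without MUT_CTCF replicate 2.

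Ldhb (chromosome 6, 142438769 to 142456477, minus strand), the form known for turning lactate back to pyruvate, had 9494 and 9077 normalized counts in WT_CTCF and 9750 and 9895 in MUT_CTCF. The MUT_CTCF libraries were above both WT_CTCF libraries, but the log2 fold change of 0.081 was not called (adjusted p = 0.232 by edgeR, SE 0.035, 95% interval 0.012 to 0.150). Per kilobase of exon, Ldhb made up 36.7 and 35.6% of the reads of both genes in WT_CTCF and 32.8 and 32.6% in MUT_CTCF. That share was 3.40 percentage points lower in MUT_CTCF without overlap (exact permutation test, two-sided p = 0.333, the smallest possible).

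Pdk1 (chromosome 2, 71711281 to 71741915, plus strand), the kinase that holds back pyruvate dehydrogenase, had 742.2 and 791.9 normalized counts in WT_CTCF and 993.4 and 982.7 in MUT_CTCF. Both MUT_CTCF libraries were higher, and the log2 fold change was 0.37 (adjusted p = 0.011 by edgeR, SE 0.090). The call was kept without WT_CTCF replicate 2 (adjusted p = 0.0292). It was lost without WT_CTCF replicate 1 (0.165), MUT_CTCF replicate 1 (0.383) or MUT_CTCF replicate 2 (0.357), and with no filter (0.21). Set against Ldha, Pdk1 had 2.38 and 2.54 reads per 100 Ldha reads in WT_CTCF and 2.62 and 2.53 in MUT_CTCF, and these ranges overlapped.

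**Figure D2:**
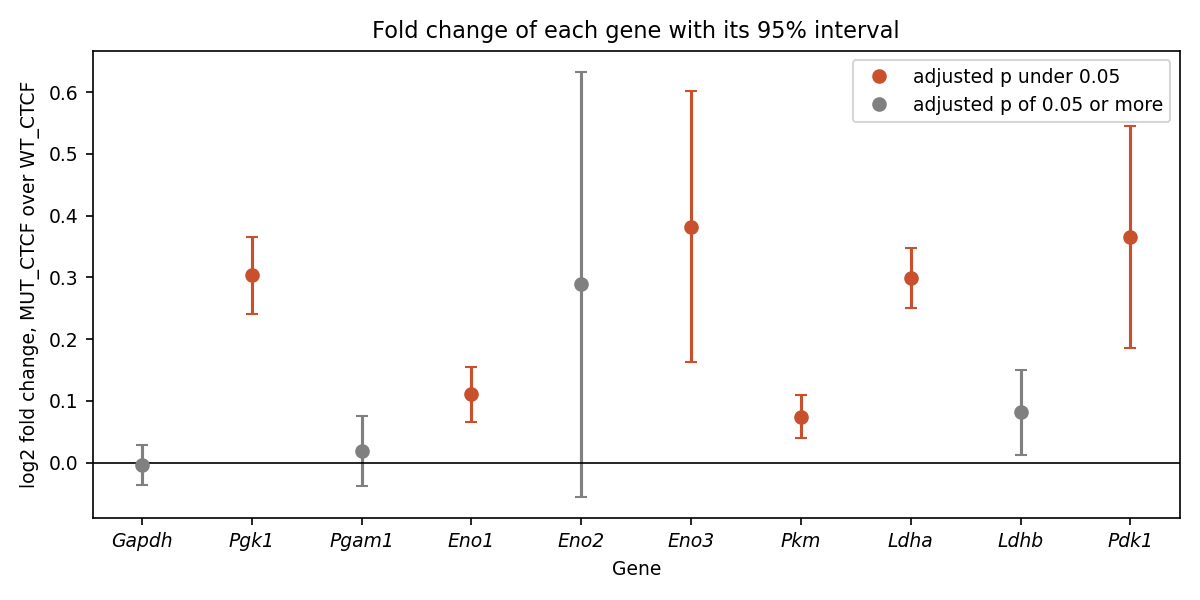
Log2 fold change of MUT_CTCF over WT_CTCF (vertical axis) for each of the 10 genes (horizontal axis), with bars for the 95% interval of edgeR's fit and colour for an adjusted p under 0.05. Intervals were narrow for Gapdh, Pkm and Eno1 and wide for Eno2, Eno3 and Pdk1, which had the fewest reads.

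Gapdh and Pgk1 both serve as reference genes of quantitative PCR, and they gave different answers here. There were 5.05 and 5.03 Pgk1 reads per 100 Gapdh reads in WT_CTCF and 6.31 and 6.16 in MUT_CTCF, without overlap. Ldha had 13.2 and 13.4 reads per 100 Gapdh reads in WT_CTCF and 16.4 in both MUT_CTCF libraries. Ratios within a library do not depend on how libraries are scaled, but they show unequal change and not which gene changed. Divided by Gapdh, the log2 fold changes of the 6 genes that rose were 0.31 for Pgk1, 0.11 for Eno1, 0.39 for Eno3, 0.078 for Pkm, 0.30 for Ldha and 0.37 for Pdk1. Actb, a further gene used in this way, fell by 0.12 on the log2 scale (adjusted p = 8.63e-05 from edgeR). Against the geometric mean of 12 reference genes other than Gapdh and Pgk1, Gapdh had a log2 fold change of 0.014, which became -0.016 without Hprt, a gene with 17 to 26 reads per library.

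**Figure D3:**
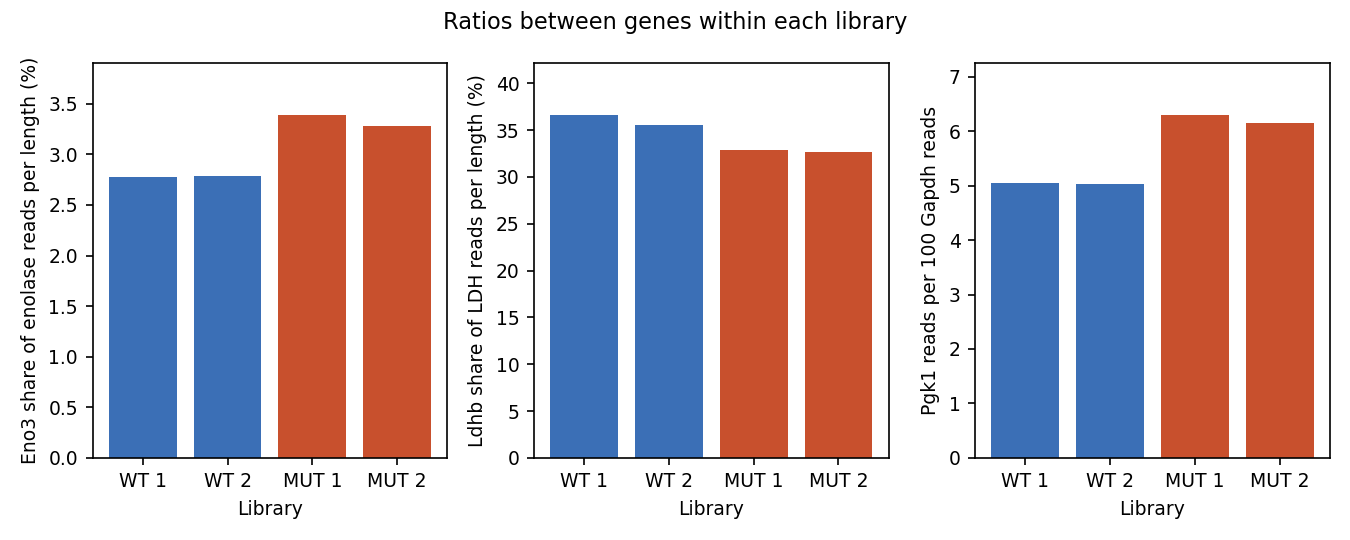
Bars give, for each of the 4 libraries (horizontal axis), the Eno3 share of enolase reads per kilobase of exon (%), the Ldhb share of lactate dehydrogenase reads per kilobase of exon (%) and the Pgk1 reads per 100 Gapdh reads (vertical axes from 0). In each panel the MUT_CTCF bars lie on 1 side of the WT_CTCF bars, higher for Eno3 and Pgk1 and lower for Ldhb.

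Levels of the 10 genes spanned a wide range when set as CPM per kilobase of annotated exon. Gapdh ranged from 2516 to 2579 over the 4 libraries and Pkm from 1525 to 1624 on this scale. Ldha followed at 256 to 319, Pgam1 at 256 to 265 and Eno1 at 248 to 272, and the ranges of these 3 overlapped. Ldhb at 142 to 155 and Pgk1 at 128 to 160 overlapped as well, while Eno3 (7.13 to 9.34), Pdk1 (2.34 to 3.13) and Eno2 (0.960 to 1.32) were apart from each other. Annotated length sets part of this order, since with the longest transcript as length Eno1 ranged from 657 to 722 and stood above Ldha at 433 to 539.

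Reads that fit more than 1 place were not counted, and many of these genes have processed copies in the genome. The share of the longest transcript that lay in an exact match of at least 50 bases elsewhere in mm9 was 95.7% for Pgk1, 94.7% for Pgam1, 86.1% for Gapdh, 84.95% for Eno1, 77.5% for Ldhb, 74.65% for Pkm and 67.1% for Ldha, but 4.15% for Eno2, 1.27% for Pdk1 and 0 for Eno3. The read length was not given, and longer reads can be placed where shorter ones cannot. The levels above are counts of the reads that could be placed, and comparisons between genes carry this limit. Gapdh had 120 near copies (at least 90% identity over 70% of the transcript), Ldha 9, Eno1 5, Pkm 4, Pgam1 4, Pgk1 2 and Ldhb 1. Annotated copies held at most 1.00% as many reads as their gene, except those of Eno1, which held 24.4 to 26.3% as many. Most of these lay on Gm5506, which is 99.48% identical to Eno1 and had 14256 and 13682 counts in WT_CTCF and 14117 and 15434 in MUT_CTCF. Gm5506 did not pass the test (log2 fold change 0.076, adjusted p = 0.26 by edgeR, SE 0.034), and its reads cannot be told apart with certainty from those of Eno1. With the reads of the copies added, Eno1 had a log2 fold change of 0.10 (adjusted p = 0.00171 from edgeR) and 6 of the 10 genes were called. None of the 10 genes shares exon positions with another annotated gene.

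The neighbouring steps of the pathway were counted from lists of genes. In upper glycolysis, from hexokinase to triose phosphate isomerase with the PFKFB regulators, 8 of 15 tested genes rose and 0 fell (edgeR, with 0 lower at an unadjusted p under 0.05 and 0 lower with DESeq2 or the exact test), with a median log2 fold change of 0.14. Those with the smallest p were Tpi1, which interconverts the triose phosphates upstream of Gapdh (log2 fold change 0.47, adjusted p = 2.05e-15 by edgeR, SE 0.035), Pfkp, a phosphofructokinase (0.37, adjusted p = 5.65e-11, SE 0.036), and Aldoc, an aldolase (0.99, adjusted p = 2.51e-09, SE 0.112). Of 7 tested genes of glucose and lactate transport 4 rose and 0 fell (0 lower at an unadjusted p under 0.05, and 0 lower with DESeq2 or the exact test), and Slc16a7 had 0 counts in every library. The lactate exporter gene Slc16a3 had a log2 fold change of 1.03 (adjusted p = 1.58e-19 by edgeR, SE 0.061), and the glucose transporter genes Slc2a1 and Slc2a3 had 0.47 and 0.17 (adjusted p = 2.24e-14 and 1.39e-08 from edgeR).

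Among the other isozymes of the same steps, 0 of 8 tested genes were called by edgeR (1 higher and 0 lower at an unadjusted p under 0.05), and the exact test called 0, while DESeq2 gave no adjusted p for any of them. The smallest p were those of Ldhd, the D-lactate dehydrogenase (log2 fold change 0.44, adjusted p = 0.299 from edgeR), Bpgm (-0.14, 0.542) and Ldhc (0.20, 0.634), and Pgk2 had 0 counts in every library. Pyruvate dehydrogenase, its kinases and phosphatases other than Pdk1 and the mitochondrial pyruvate carrier gave 0 calls of 14 tested genes with edgeR (1 higher and 0 lower at an unadjusted p under 0.05), 0 with the exact test and 0 with DESeq2, which gave 8 of them an adjusted p. Their median log2 fold change was 0.00025. The smallest p were those of the phosphatase gene Pdp1 (log2 fold change 0.60, adjusted p = 0.199 from edgeR), the kinase gene Pdk3 (0.12, 0.353) and Pdha2 (0.32, 0.437). Pdp1 overlapped between the lines, with 113.2 and 94.2 normalized counts in WT_CTCF and 201.2 and 112.5 in MUT_CTCF. Pdk1 was thus called and Pdk2, Pdk3 and Pdk4 were not, though the differences between these kinase genes were not tested.

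**Figure D4:**
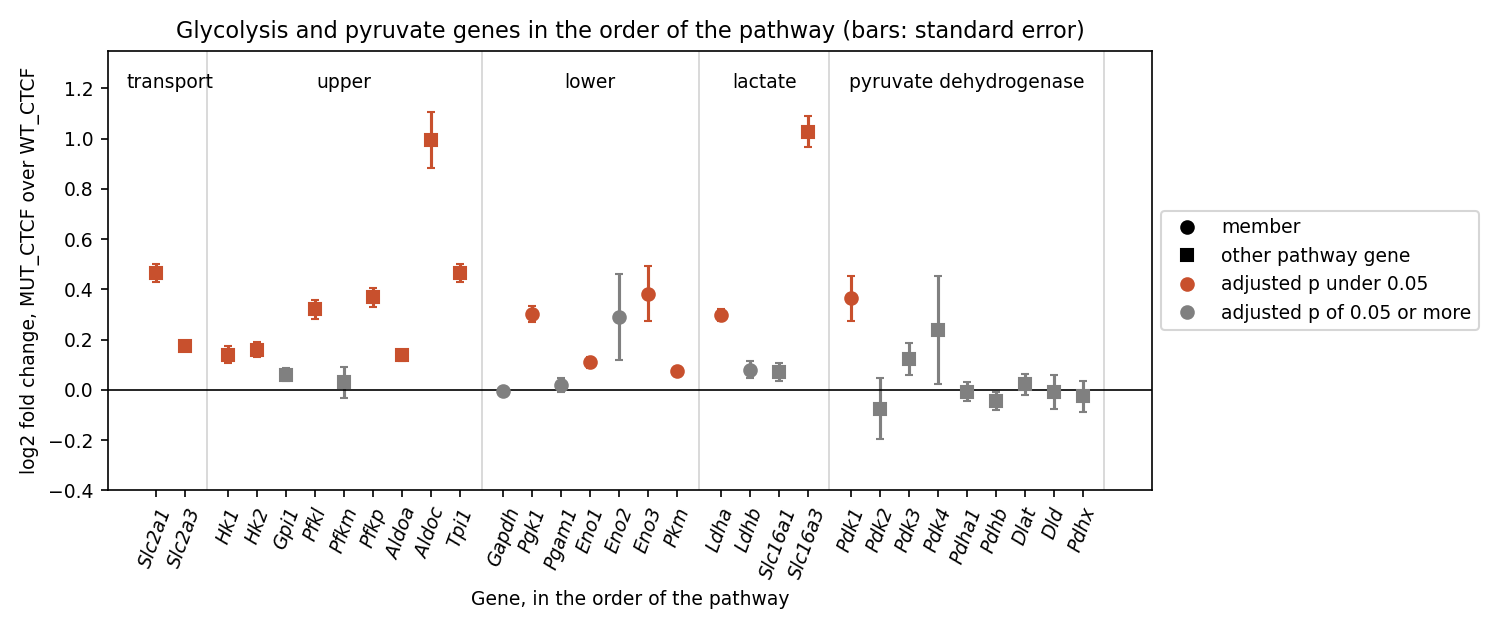
Log2 fold change of MUT_CTCF over WT_CTCF (vertical axis, bars for the standard error) for genes of glucose uptake, glycolysis, lactate and pyruvate dehydrogenase in the order of the pathway (horizontal axis), with circles for the 10 genes and squares for other genes. Called genes stand from glucose uptake to lactate export, with Gapdh and Pgam1 near 0, and Pdk1 is the one called gene in the panel of pyruvate dehydrogenase.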

How the data were processed

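RNA-seq counts of 2 WT_CTCF and 2 MUT_CTCF libraries were used. The authors trimmed reads with Trim Galore 0.4.4, aligned them to mm9 with STAR and counted uniquely mapped reads per gene with HTSeq-count 0.9.1. The deposited counts were not normalized. The annotation release, the read length and the use of strand were not given in the sources used here. The authors' edgeR table (fold changes, p-values and false discovery rates) was not used.

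Symbols came from GENCODE M1, which named 37205 of 37620 identifiers. Genes were filtered with filterByExpr at a minimum of 10 counts, scaled by TMM and tested with edgeR 4.0.16 (R 4.3.3) by glmQLFit and glmQLFTest on the condition alone. The standard error is the size of the log2 fold change divided by the root of F. DESeq2 1.42.0, edgeR's exact test, other scalings and filters, a replicate block and fits without 1 of the libraries were alternatives. Near copies were found by BLAST against mm9, and adding their reads was chosen after the data were seen. The genes and lists were chosen with earlier results of these data known. All 10 genes are described, with the 3 smallest p of each pathway list, and part of the result for reference genes is not reported here. Replicate libraries differed by more than sampling noise (chi-square per degree of freedom 3.65 and 4.33), and the p-values measure only the spread between these libraries. In simulated counts for this comparison, 27.8% of genes changed by 1.2-fold and 43.6% of genes changed by 1.3-fold were called (15967 and 15962 genes tested), with 5.26 and 2.30% of calls false. The changed genes were drawn from all tested genes, so these shares are not those of genes as highly expressed as Gapdh, Pgam1 or Ldhb. Promoter windows were matched by symbol for all 10 genes.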

Additional observations from a re-analysis of the deposited data

How the results depend on the processing

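Of 6 genes called higher, 2 were left without a filter on low counts, and 1 to 4 with each library left out in turn. The count stayed within 1.5 times of 6 under the other alternatives, down to 4 with DESeq2, which gave no adjusted p for Eno2, Eno3 and Pdk1, and 0 genes were lower under any. The median log2 fold change of 0.20 ran from 0.15 to 0.20 with a library left out. With the replicate block 6 genes were called and the median was 0.20. The deviations of replicate 1 of each line had a correlation of 0.0029, by which a pairing of the libraries was neither shown nor excluded. Over all genes the block gave 326 higher and 372 lower, against 253 and 262 without it. For Gapdh, the log2 fold change turned to 0.0085 with library size only and 0.014 against the reference genes (-0.016 without Hprt, left out after the data were seen), and ran from -0.023 to 0.014 with a library left out. That of Pgam1 ran from -0.0015 to 0.039. With the longest transcript as length, the change in the Eno1 share was -0.269 in place of -0.607 percentage points and that of Eno3 0.236 in place of 0.557. Over all genes, calls without a filter were 26 higher and 3 lower, against 253 and 262. Of 117 values of single genes with an adjusted p under alternatives, 93 kept their direction and side of the threshold, 20 lost the call and 4 changed sign. Depth limits Eno2, Eno3 and Pdk1 most.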
